A study of Mus musculus with 3 samples.

Results

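10 genes of the Notch pathway were followed in 3 RNA-seq libraries of C2C12 cells, a mouse myoblast line that can be turned towards muscle or bone. They were chosen by name and by role, with earlier results of these data known. The list holds the receptors Notch1, Notch2 and Notch3, the ligands Jag1 and Dll1 and the receptor-modifying enzyme Lfng. It also holds the nuclear factor Rbpj and the target genes Hes1, Hey1 and Heyl. These members are 10 of the 22708 genes in the files, and all 10 were found there. The first library is of mock-transfected cells grown in DMEM with 20% FBS, the growth medium. The second is of cells labelled shKSRP, kept in that growth medium too, for transfection with a short hairpin RNA against KSRP, an RNA-binding protein of AU-rich elements encoded by Khsrp. The third is of mock-transfected cells titled DM+BMP2. The protocol for these gives 2% horse serum in the differentiation medium and BMP2, a bone morphogenetic protein, at 100 to 300 ng/ml. Medium and BMP2 therefore differed together between the third library and the others, and the labels leave the length of treatment unsettled. Each group is 1 library, so the differences carry no replicate spread and no p-values. The libraries are called mock, the library labelled shKSRP (or shKSRP label) and BMP2, and values are given in that order.

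Notch receptors sit on the cell surface and are bound by Jagged or Delta ligands on a neighbouring cell. Binding lets ADAM proteases and then γ-secretase cut the receptor, and the freed intracellular part enters the nucleus, joins RBPJ and a Mastermind coactivator, and switches on genes of the HES and HEY repressor families. In muscle precursors the pathway is known for holding cells undifferentiated, and in the bone lineage HEY1 is known as a gene that also responds to BMP signals.

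Values are FPKM: fragments on a transcript, divided by its length in kilobases and by the library's mapped fragments. A gene's value is the sum over its RefSeq transcripts and the transcripts that Cufflinks assembled at the same locus. The ± after a value is the half-width of the deposited 95% interval, which covers counting and assignment error within 1 library and says nothing of the spread between cultures. Differences are log2 ratios of FPKM + 1, which understate changes of low genes. Higher or lower was called at a ratio of 2-fold or more on that scale (1 or more in log2), a rule of size and not a test. Genes below 1 FPKM in all 3 libraries were not compared, which left 11462 genes and 9 of the 10 members. Heyl did not pass.

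The interval widths correspond to about 62.1 M (mega) fragments for mock, 68.4 M for the library labelled shKSRP and 60.3 M for BMP2. Khsrp itself was at 31.4 ± 0.85, 28.4 ± 0.64 and 27.1 ± 0.67 FPKM in that order. This is 90.6% of mock under the shKSRP label and 86.5% with BMP2, so the level of the targeted gene does not set the labelled library apart. With RefSeq transcripts only it was at 15.5, 28.4 and 27.1 FPKM, with mock lowest. Of 6 myoblast markers, 5 in mock, 6 under the shKSRP label and 5 with BMP2 were at 1 FPKM or more. With BMP2 Cdh15 was at 5.02 against 38.3 FPKM in mock, Myod1 at 17.3 against 30.7 and Des at 218 against 280. The others were higher with BMP2 than in mock: Myog at 11.3 against 9.54, Myf5 at 9.09 against 7.75 and Pax7 at 0.463 against 0.118. The 7 endothelial markers, which stand for another cell type rich in Notch receptors and ligands, summed to 0.103, 0.362 and 0.161 FPKM, and none reached 1. In these bulk samples, fewer cells that express a gene and less RNA per cell cannot be told apart.

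RBPJ is known to bind GTGGGAA and its core TGGGAA. Both motifs were searched on both strands in the 250 bases before each start site of a table of RefSeq promoters (GRCm38.p6), where each match of the longer motif is also one of the core. Of all 32851 windows, 5.42% held GTGGGAA and 21.6% held TGGGAA. Among the members the table has entries for Notch1, Notch2, Notch3, Jag1, Dll1, Lfng and Rbpj, and Hes1, Hey1 and Heyl are not in it. Lfng was the one member in it with GTGGGAA, 109 bases before the start, and it had TGGGAA at 135 and 108 bases before it. Rbpj had TGGGAA alone. The windows of Notch1, Notch2, Notch3, Jag1 and Dll1 held neither string of letters. The Lfng window is printed because Lfng had the highest FPKM of the members in 2 of the 3 libraries. Capitals mark TGGGAA or its reverse complement TTCCCA (GRCm38.p6, plus strand, chr5:140607091-140607340). A match is a string of letters and no measured binding site.
Lfng, 250 bases before the start: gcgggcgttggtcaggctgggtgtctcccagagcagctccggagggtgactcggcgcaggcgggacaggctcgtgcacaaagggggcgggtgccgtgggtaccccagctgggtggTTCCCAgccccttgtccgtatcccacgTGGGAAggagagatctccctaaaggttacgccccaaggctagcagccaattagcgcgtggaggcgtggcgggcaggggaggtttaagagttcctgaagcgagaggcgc

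Because KSRP binds AU-rich elements, the letters TATTTAT, an AU-rich core, were also searched on the transcript strand in the longest annotated 3′ UTR of each gene (GENCODE, GRCm38). Of 20971 genes with a 3′ UTR, 27.5% held at least 1 match, at 0.311 per kb over all of them. Jag1 held 5 matches in 1568 nt, or 3.19 per kb, where 35.5% of genes with a 3′ UTR of like length held any. Notch1 held 4 in 1628 nt, Notch3, Dll1, Lfng and Rbpj held 1 each, and Notch2, Hes1, Hey1 and Heyl held none. Among genes with a 3′ UTR of like length, the share with any match was 36.1% for Notch1 and 24.8% for Notch3. It was 18.3% for Dll1, 26.5% for Lfng and 58.8% for Rbpj. For the members without a match it was 52.4% (Notch2), 8.47% (Hes1), 28.8% (Hey1) and 55.7% (Heyl). The windows of the members whose level differed most in the library labelled shKSRP are printed with the match in capitals, as the transcript reads (minus strand for Jag1, Notch3 and Dll1, plus strand for Lfng). The first 2 Jag1 windows overlap each other.
Jag1, chr2:137082664-137082692: gatcatagtttTATTTATatttattgact
Jag1, chr2:137082658-137082686: agttttatttaTATTTATtgactcttgag
Jag1, chr2:137082540-137082568: aatgactttatTATTTATttttttttatt
Jag1, chr2:137082333-137082361: tcattccttttTATTTATatgtatgtgtt
Jag1, chr2:137081468-137081496: ttgaaaagtaaTATTTATtaaattttttg
Notch3, chr17:32121639-32121667: cagtcttccttTATTTATaatgggtaggg
Dll1, chr17:15367441-15367469: gtatataaatgTATTTATggaatattgtg
Lfng, chr5:140615293-140615321: ccttagtactgTATTTATgccttccagta
Of the 6 members with a match, 3 were above mock in the library labelled shKSRP (Jag1, Notch3 and Dll1) and 3 were below it (Lfng, Rbpj by less than 2-fold, and Notch1, which is listed at 0), as the values below show. Of the members without a match, Notch2 (log2 ratio 0.89) and Hey1 (0.25) were above mock there and Hes1 (-0.99) was below it. Heyl was not compared. The median log2 ratio over all genes compared was -0.02. Whether KSRP binds any of the printed windows was not measured.

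**Figure D1:**
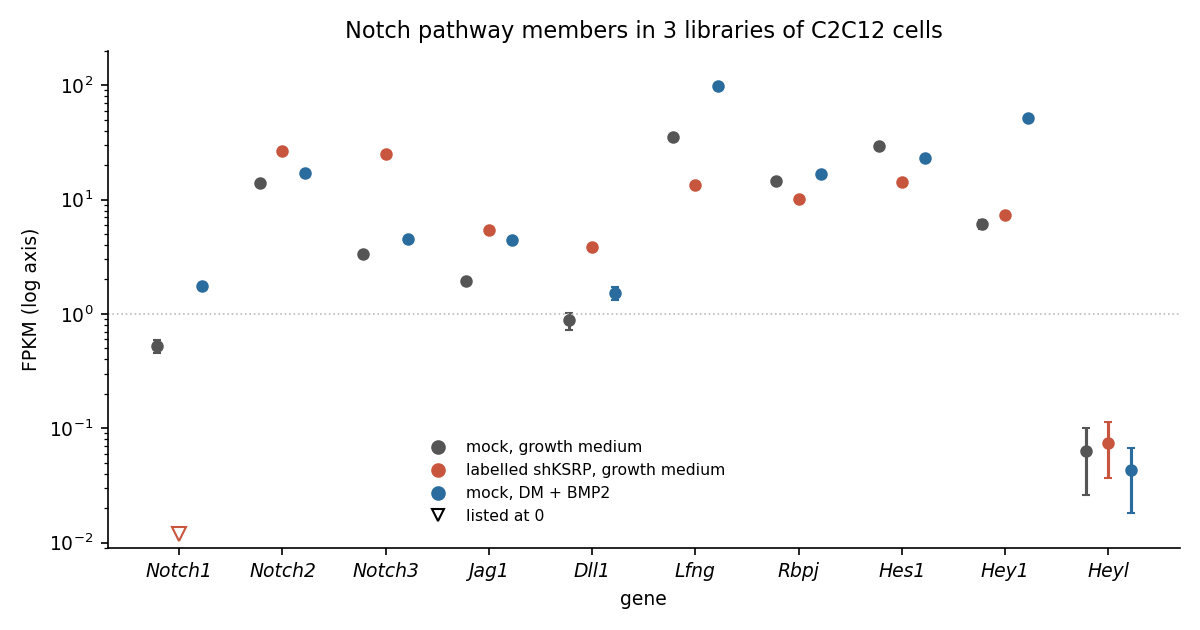
FPKM of the 10 members (y axis, log scale) in the mock library (grey), the library labelled shKSRP (red) and the BMP2 library (blue); points are gene values, bars the half-widths of the deposited intervals, the dotted line 1 FPKM and the open triangle a gene listed at 0. Notch3 stands apart in the library labelled shKSRP at 25.0 FPKM, Hey1 and Lfng in the BMP2 library at 51.4 and 98.98 FPKM.

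In the library labelled shKSRP, the receptor gene Notch3 and the ligand genes Jag1 and Dll1 were higher than in the mock library, and Lfng was lower. Those 3 of the 9 members compared were called higher and 1 was called lower, while 11.0% of all genes compared were called higher and 12.9% lower. The median log2 ratio of the 9 was 0.25, beside -0.02 over all genes. It was 0.57 without Notch1, which is listed at 0, and 1.14 with RefSeq transcripts only, where all genes were at 0.02. In the BMP2 library 2 of the 9, Lfng and Hey1, were called higher than in the mock library and none lower, where 9.21% of all genes were called higher and 8.94% lower. The median of the 9 was 0.43, beside 0.03 over all genes, and 1.43 with RefSeq transcripts only. Both comparisons use the same mock library, so a value specific to it would enter both. When each library was scaled to the same FPKM sum, the median over all genes moved to 0.28 in both comparisons, the members called were 4 higher and 1 lower in the first and 4 higher in the second, and 19.1% and 14.9% of all genes were called higher.

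Notch3 (mm9, chr17:32257838-32303797, minus strand) codes for a receptor known from smooth muscle, pericytes and muscle satellite cells. It was at 3.36 ± 0.16 FPKM in mock, 25.0 ± 0.78 under the shKSRP label and 4.54 ± 0.19 with BMP2. The library labelled shKSRP stood far above both others, and the mock and BMP2 libraries were close to each other. Against mock its level was 7.44-fold, a log2 ratio of 2.58, and against the BMP2 library the log2 ratio was 2.23. Notch3 passed from the lower part of the range (percentile 22.4 of the genes compared) to the upper part (70.1). The size depends on how assembled transcripts are counted. In the library labelled shKSRP the RefSeq transcript was at 11.5 FPKM, a 3-exon assembled transcript of 2185 nt at the 3′ end was also at 11.5, and a 33-exon assembled transcript was at 1.96. In the mock library all of the FPKM stood on an assembled transcript of 32 exons and the RefSeq transcript was listed at 0. Put over 1 fixed gene length, the values were 3.44, 16.6 and 4.54 FPKM, which is 4.84-fold against mock (log2 1.99). Notch3 was called higher under all 12 alternatives run, with log2 ratios from 1.84 to 3.64. Of the pericyte and smooth muscle markers, Pdgfrb was at 18.9, 52.2 and 55.9 FPKM, Cspg4 at 7.67, 14.8 and 12.2, and the list of 5 summed to 1431, 2405 and 1685, nearly all of it Acta2. Rgs5, a defining pericyte marker, was listed at 0 in the mock library and in the library labelled shKSRP. Myh11, a smooth muscle marker, was at 0.023, 0.053 and 0.036. Of the myoblast markers, Pax7 (0.118, 2.90 and 0.463), Myf5 (7.75, 48.4 and 9.09) and Myod1 (30.7, 34.8 and 17.3) were highest under the shKSRP label. Cdh15 (38.3, 31.1 and 5.02) and Des (280, 185 and 218) were highest in mock. Myog (9.54, 6.52 and 11.3) was highest with BMP2 and lowest under the shKSRP label. The 6 myoblast markers summed to 366, 308 and 261 FPKM. The part of any of these cell types in the Notch3 values was not tested.

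Notch2 (chr3:97817461-97954290, plus strand) was the most abundant receptor gene in each library. Its level was 14.1 ± 0.39 FPKM in mock, 26.8 ± 0.38 under the shKSRP label and 17.2 ± 0.32 with BMP2. The order of the libraries was that of Notch3, with a smaller spread. The log2 ratio was 0.89 for the library labelled shKSRP and 0.27 for the BMP2 library, both against mock, and neither reached 2-fold. In the mock library a 15-exon assembled transcript of the 3′ part carried 8.31 FPKM and the RefSeq transcript 5.75, whereas in the other libraries all of the FPKM stood on the RefSeq transcript. Over a fixed gene length Notch2 was at 11.3, 26.8 and 17.2 FPKM, and the first ratio became 1.18, past 2-fold. With the trend of ratio on transcript length removed, the first ratio fell to 0.33.

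Notch1 (chr2:26313422-26359342, minus strand), the founding receptor of the family, was low in mock and with BMP2. It was at 0.524 ± 0.066 FPKM in the mock library and 1.74 ± 0.11 in the BMP2 library, and it was listed at 0 in the library labelled shKSRP. That 0 may be a failed estimate, since the file marks the transcript as fully covered by reads, as it does for 312 of the 401 compared genes listed at 0 in that library. No fold is given against it. The BMP2 library was above the mock library by a log2 ratio of 0.84. This order also rests on which transcripts are counted. A 2-exon assembled transcript of another locus, placed on the opposite strand, lies over the Notch1 exons and was at 7.28 ± 0.40 FPKM in the mock library (chr2:26312686-26316489). A like transcript was at 4.69 ± 0.49 in the BMP2 library (chr2:26311998-26314758), and none was listed in the library labelled shKSRP. Of the first, 3062 of 3072 nt lie on Notch1 exons, and of the second 1337 of 1690. The sources used here do not say whether the reads were stranded, so reads of Notch1 and of an antisense transcript cannot be told apart. With these added over the length of Notch1, an alternative chosen after seeing the data, the gene stood at 2.87 FPKM in the mock and 2.40 in the BMP2 library, and the direction turned (log2 -0.19).

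**Figure D2:**
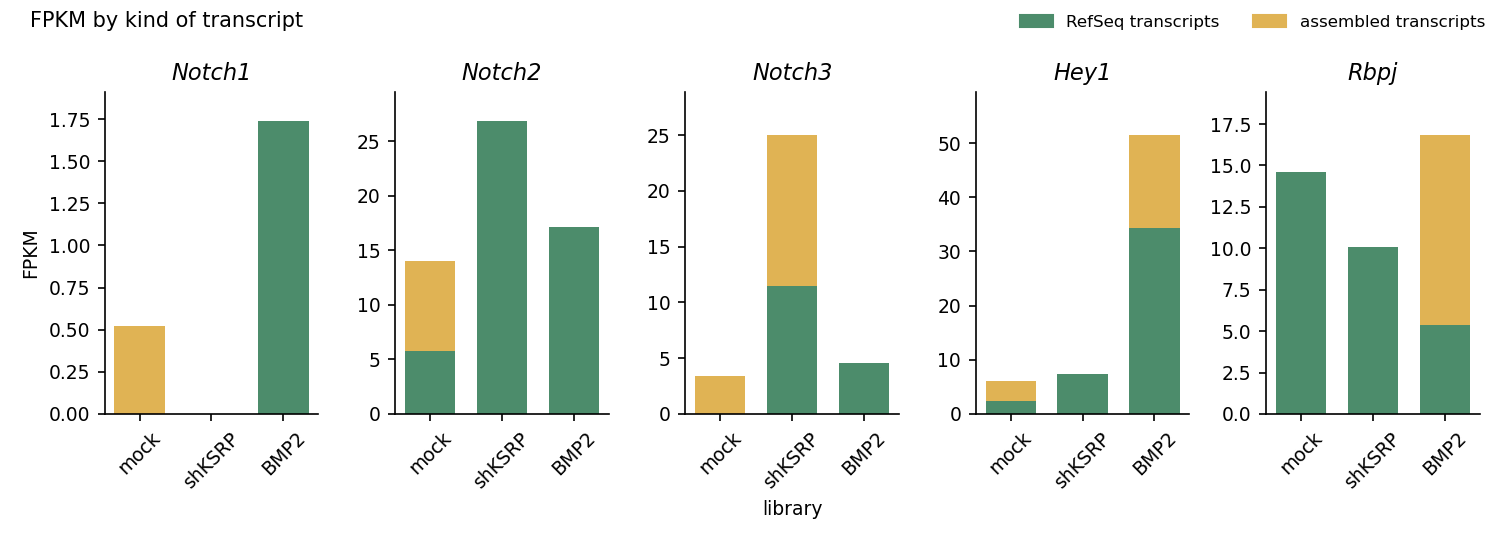
FPKM of 5 members (y axes, each from 0 and with its own range) in the 3 libraries, split into RefSeq transcripts (green) and assembled transcripts of the same locus (yellow). The mock values of Notch1 and Notch3 stand on assembled transcripts alone, and 11.5 of the 25.0 FPKM of Notch3 in the library labelled shKSRP stands on the RefSeq transcript.

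The mix of receptor transcripts differed with these levels. Of the summed receptor FPKM, 18.0 in the mock library, 78.4% was Notch2, 18.7% Notch3 and 2.92% Notch1. In the library labelled shKSRP the sum was 51.8, with 51.8% Notch2 and 48.2% Notch3. In the BMP2 library it was 23.4, with 73.2% Notch2, 19.4% Notch3 and 7.41% Notch1. Thus Notch2 and Notch3 were near equal in the library labelled shKSRP, and Notch2 led in the others. Over fixed gene lengths Notch2 led there too, with 61.7% against 38.3%. Notch1 enters these shares at its listing of 0 in the library labelled shKSRP, which may be a failed estimate. The transcripts of another locus over the Notch1 exons are left out of them. With those added over its length, Notch1 was at 2.87 FPKM in the mock library and 2.40 in the BMP2 library.

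Jag1 (chr2:136907187-136942256, minus strand) codes for the Jagged ligand, known from bone and vascular cells. It was at 1.92 ± 0.15 FPKM in mock, 5.43 ± 0.24 under the shKSRP label and 4.39 ± 0.23 with BMP2, from widths that correspond to 674, 2094 and 1497 fragments. Both other libraries were above the mock library, by log2 ratios of 1.14 and 0.88, and they differed from each other by 0.25. The value stands on a single RefSeq transcript in each library, so the assembly does not enter it. The call against mock was lost with a pseudocount of 5 FPKM (log2 0.59) and with the trend of ratio on transcript length removed (0.78).

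Dll1 (chr17:15504318-15512787, minus strand), the gene of a Delta ligand that myoblasts and their neighbours present to satellite cells, was the lowest of the 3 ligand genes that passed the filter, with Jag1 and Jag2. It was at 0.875 ± 0.15 FPKM in mock, 3.83 ± 0.26 under the shKSRP label and 1.53 ± 0.20 with BMP2. The interval of the library labelled shKSRP lay above both others. Its level was 4.38-fold of mock and 2.51-fold of the BMP2 library, with log2 ratios of 1.37 and 0.94, and the BMP2 library was above mock by 0.43. The widths correspond to about 137, 903 and 242 fragments, so the mock value is among the least precise. A pseudocount of 5 FPKM took the first ratio to 0.59.

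Jag2, a further ligand gene outside the 10, was at 3.67 ± 0.27, 7.83 ± 0.42 and 2.33 ± 0.18 FPKM in the same order. It was above the mock library by a log2 ratio of 0.92 in the library labelled shKSRP and below it by -0.49 in the BMP2 library, short of 2-fold in both. Summed over Jag1, Dll1 and Jag2, ligand FPKM was 6.46, 17.1 and 8.25. Jag2 held 56.7% of the sum in the mock library and 45.8% in the library labelled shKSRP, while Jag1 held 53.3% in the BMP2 library. The ligand genes therefore stood highest as a sum in the library labelled shKSRP, and the leading ligand gene in the BMP2 library was another one.

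Lfng (chr5:141083295-141091499, plus strand) codes for lunatic fringe, a Golgi enzyme that adds a sugar to the receptor and shifts which ligands it answers. It was at 35.0 ± 1.0 FPKM in mock, 13.4 ± 0.59 under the shKSRP label and 98.98 ± 1.7 with BMP2. The 3 intervals lay far apart, with the library labelled shKSRP lowest and the BMP2 library highest. The library labelled shKSRP held 38.4% of the mock level (log2 -1.32) and 13.6% of the BMP2 level (log2 -2.79), and the BMP2 library was 2.83-fold of mock (log2 1.47). All 3 calls held under all 12 alternatives, with the first ratio from -1.37 to -1.01. A single RefSeq transcript carried the value in each library, from widths that correspond to 4870, 2056 and 13401 fragments. The epithelial markers were ordered in the same way, at a sum of 114, 18.5 and 264 FPKM, which is nearly all Krt14, a gene that shares its locus with another. Epcam was listed at 0 in all 3 libraries and Cdh1 was at most at 0.317 FPKM. The part of other cells in the Lfng values was not tested.

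Rbpj (chr5:53947018-54048684, plus strand) codes for the DNA-binding factor through which the receptors act. It was at 14.6 ± 0.49 FPKM in mock, 10.1 ± 0.33 under the shKSRP label and 16.8 ± 0.54 with BMP2. The libraries were close, with log2 ratios of -0.49 and 0.19 against mock and -0.69 between the library labelled shKSRP and the BMP2 library, none of them 2-fold. In the BMP2 library an 11-exon assembled transcript carried 11.5 FPKM and the RefSeq transcripts 5.37. With RefSeq transcripts alone the BMP2 library would therefore be below mock (log2 -1.29), against the direction of the summed value.

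Hes1 (chr16:30065443-30067882, plus strand), the gene of a repressor that is the best known direct target of Notch, was at 29.3 ± 1.2 FPKM in mock, 14.2 ± 0.78 under the shKSRP label and 23.1 ± 1.1 with BMP2. The intervals did not overlap, and the mock library was highest. The library labelled shKSRP held 48.6% of the mock level, a log2 ratio of -0.99 that stayed just short of the call and passed it with a pseudocount of 0.1 FPKM (-1.04). The BMP2 library held 78.8% (log2 -0.33). The widths correspond to 2473, 1319 and 1896 fragments on 1 RefSeq transcript.

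Hey1 (chr3:8663359-8667038, minus strand), the gene of a related repressor, was at 6.05 ± 0.55 FPKM in mock, 7.38 ± 0.45 under the shKSRP label and 51.4 ± 1.6 with BMP2. The BMP2 library stood alone, and the other libraries were closer to each other. Against mock the BMP2 level was 8.50-fold (log2 2.89), and the library labelled shKSRP held 14.3% of the BMP2 level (log2 -2.65) and differed from mock by 0.25. A 2-exon assembled transcript that shares none of the 4 introns of the RefSeq transcript carried 3.63 FPKM in the mock library and 17.1 in the BMP2 library. Over a fixed gene length Hey1 was at 5.29, 7.38 and 47.9 FPKM. Both calls with BMP2 held under all 12 alternatives. With RefSeq transcripts only, mock was at 2.43 FPKM and the library labelled shKSRP was called higher than it (log2 1.29). The osteoblast markers summed to 19.0, 31.5 and 79.0 FPKM over 6 genes, so their sum was also highest with BMP2. Highest there were Alpl (0.052, 0.447 and 12.8), Sp7 (0.187, 0.527 and 8.12), Col1a1 (2.88, 15.7 and 31.9) and Bglap (7.34, 1.21 and 13.3, at a shared locus). Runx2 was highest under the shKSRP label, at 8.55, 13.6 and 12.8, and Ibsp was listed at 0 in all 3 libraries. Of these 6, 3, 3 and 5 were at 1 FPKM or more, and their part in the Hey1 and Lfng values was not tested.

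Heyl (chr4:122910799-122927113, plus strand), the gene of another HEY factor, was at 0.063 ± 0.037, 0.074 ± 0.038 and 0.043 ± 0.025 FPKM, from widths that correspond to between 11.7 and 15.3 fragments. The intervals overlapped, and no difference was detectable at this depth. Of the FPKM summed over Hes1, Hey1 and Heyl, Hes1 held 82.7% in the mock library and 65.6% in the library labelled shKSRP, and Hey1 held 69.0% in the BMP2 library. The sums were 35.4, 21.7 and 74.6 FPKM, without Hes6, which is described below. The most abundant of these target genes was thus Hes1 in growth medium and Hey1 with BMP2.

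**Figure D3:**
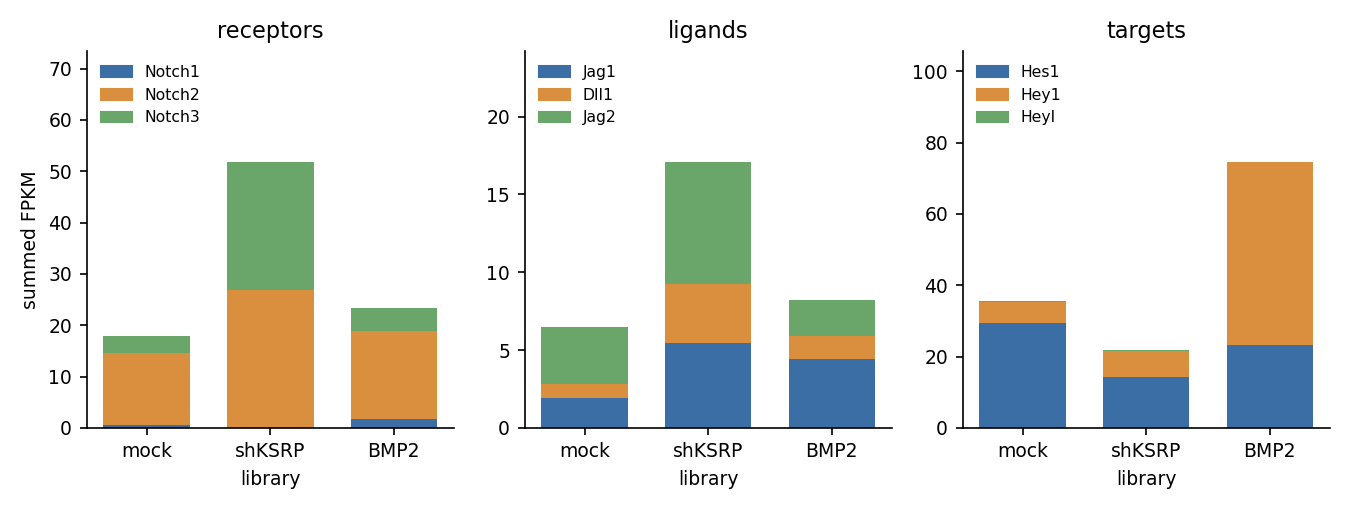
Summed FPKM (y axes, each from 0) of the receptor genes, the ligand genes with Jag2 added, and the target genes in each library, stacked by gene. The receptor sum is 18.0, 51.8 and 23.4 FPKM, the ligand sum 6.46, 17.1 and 8.25, and the target sum 35.4, 21.7 and 74.6. In the library labelled shKSRP, Notch1 enters the receptor sum at its listing of 0. The receptor and ligand sums are highest in the library labelled shKSRP, and the sum of Hes1, Hey1 and Heyl is lowest there. Hes6, a HES gene outside the members, is not in the target sum and was highest in that library, at 40.6, 127 and 46.0 FPKM.

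Between the library labelled shKSRP and the BMP2 library, Notch3 was called higher, and Lfng, Hey1 and Notch1 were called lower, the last of them on its listing at 0. These are 1 higher and 3 lower of 9, beside 6.05% and 8.65% of all genes, with a median log2 ratio of -0.66 beside -0.02. That median was -0.20 without Notch1 and turned to 0.25 with RefSeq transcripts only. With the same FPKM sum in each library, 2 were higher and 3 lower, since Dll1 then passed the 2-fold rule on the FPKM + 1 scale. The shares of all genes were then 7.88% and 9.10%. With a pseudocount of 5 FPKM Notch1 was no longer called. Notch1 passed the 1 FPKM filter through the BMP2 library alone, so its lower call against that library is tied to the filter. With genes listed at 0 or at shared loci left out, 1 was higher and 2 lower of 8. The shares of all genes were then 4.84% and 6.79%.

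Within each library the levels spanned a wide range. In the mock library the order from the top was Lfng, Hes1, Rbpj, Notch2, Hey1, Notch3, Jag1, Dll1, Notch1 and Heyl, and the neighbours Rbpj and Notch2 had overlapping intervals. In the library labelled shKSRP it was Notch2, Notch3, Hes1, Lfng, Rbpj, Hey1, Jag1, Dll1 and Heyl, with overlap of Hes1 and Lfng and with Notch1 listed at 0. In the BMP2 library it was Lfng, Hey1, Hes1, Notch2, Rbpj, Notch3, Jag1, Notch1, Dll1 and Heyl, with overlap of Notch2 with Rbpj, of Notch3 with Jag1 and of Notch1 with Dll1. Notch2 and Notch3 headed the order in the library labelled shKSRP and in neither of the others. Over 1 fixed length the value of Notch3 there falls from 25.0 to 16.6 FPKM and stays above that of Hes1, while its RefSeq transcript alone, at 11.5, is below Hes1 and Lfng.

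**Figure D4:**
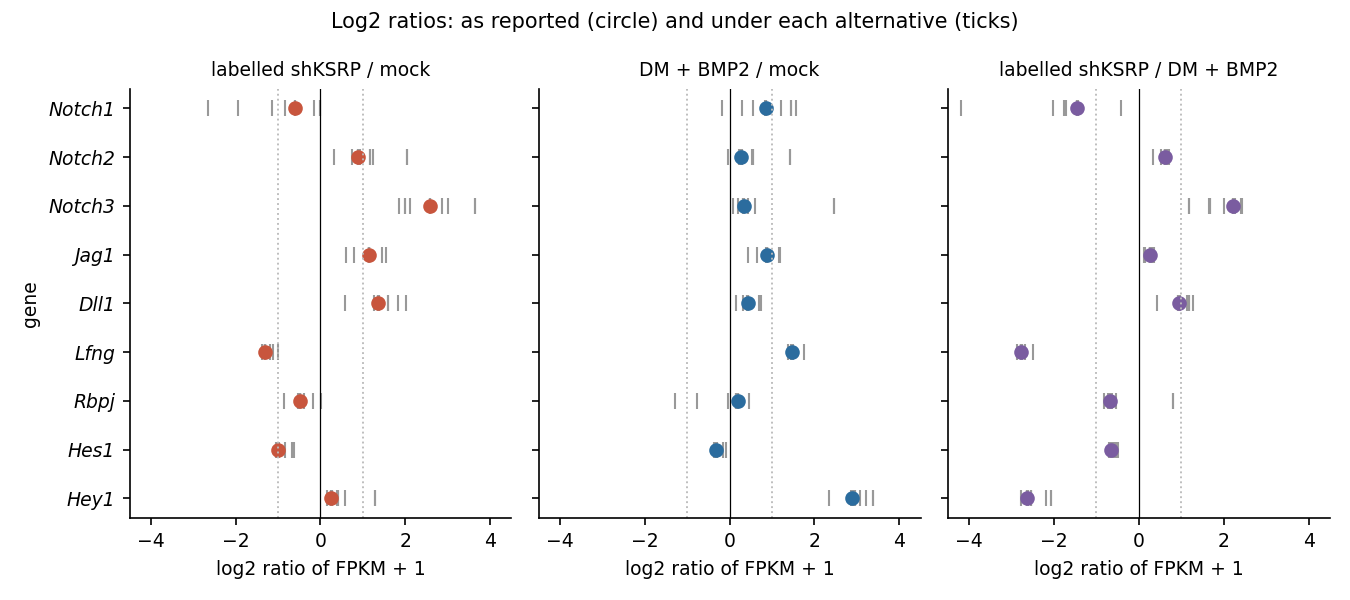
Log2 ratios of FPKM + 1 (x axes) of the 9 members compared, for the library labelled shKSRP against mock, the BMP2 library against mock and the library labelled shKSRP against the BMP2 library; circles are the reported values, grey ticks the alternatives and dotted lines the 2-fold rule. The ticks of Notch3 (both panels with the library labelled shKSRP), Lfng (all panels) and Hey1 (both panels with BMP2) stay past the dotted lines on the side of the circle. Those of Notch1, Notch2, Jag1, Dll1, Rbpj and Hes1 cross a line in at least 1 panel. So do those of Notch3 for BMP2 against mock and of Hey1 for the library labelled shKSRP against mock.

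Beyond the 10 members, a list of 61 other genes of the pathway was read, of which 60 matched a symbol and 45 were compared. Against mock, 6 were called higher in the library labelled shKSRP (among them Dtx4, Numbl, Maml3, Spen and Hes6) and 2 lower (Rfng and Tle2), where 11.0% and 12.9% of all genes were called, with a median log2 ratio of 0.40. In the BMP2 library 2 were called higher (Adam10 among them) and 2 lower (Neurl1b and Tle2), where 9.21% and 8.94% of all genes were called, with a median of 0.28. Between the library labelled shKSRP and the BMP2 library, 3 were higher (Jag2, Dtx4 and Hes6) and 2 lower (Rfng and Neurl1a), beside 6.05% and 8.65% of all genes, with a median of -0.01. The calls of Rfng, a fringe gene related to Lfng, and of Tle2, a Groucho corepressor gene, rest on listings at 0 at loci shared with other genes. With the same FPKM sum in each library the counts against mock became 14 higher and 2 lower in the library labelled shKSRP and 8 higher and 2 lower in the BMP2 library, with the same shift over all genes as above.

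Hes6, whose protein is known to oppose Hes1 and to favour myogenic differentiation, was at 40.6 ± 1.9 FPKM in mock, 127 ± 2.6 under the shKSRP label and 46.0 ± 1.6 with BMP2. The library labelled shKSRP stood above both others (log2 1.62 against mock), the reverse of the order for Hes1, which was lowest there. Maml3, a Mastermind coactivator gene, was at 0.736 ± 0.080, 3.74 ± 0.20 and 1.5 ± 0.14 FPKM (log2 1.45 and 0.52 against mock). Dtx4, a gene of the Deltex ubiquitin ligases that act on the receptor, was at 0.642 ± 0.083, 3.37 ± 0.25 and 1.09 ± 0.15 FPKM (log2 1.41 and 0.35). Numbl, a relative of the Notch inhibitor gene Numb at a shared locus, was at 10.3 ± 0.57, 22.7 ± 0.88 and 18.5 ± 0.67 FPKM (log2 1.06 and 0.78), and over a fixed gene length it was not called (0.95). Maml3, Dtx4 and Numbl were ordered like Dll1, with the library labelled shKSRP highest and the mock library lowest.

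Among the corepressor genes, Spen was at 0.959 ± 0.075, 4.02 ± 0.17 and 2.34 ± 0.11 FPKM, with a locus shared with another gene. Of the furin, sheddase and γ-secretase genes, the machinery that cuts the receptor, none of 9 was called in the library labelled shKSRP and 1 was in the BMP2 library, numbers too small to set against the shares of all genes given above. This was Adam10, the gene of the main sheddase, at 20.7 ± 0.53, 37.4 ± 0.84 and 43.4 ± 1.1 FPKM, which over a fixed gene length had a log2 ratio of 0.57 in the BMP2 library and was not called. Neurl1b, a ubiquitin ligase gene of ligand endocytosis, was at 2.41 ± 0.16, 0.930 ± 0.10 and 0.654 ± 0.082 FPKM and was highest in the mock library. Its relative Neurl1a was at 8.71 ± 0.49, 6.89 ± 0.40 and 18.2 ± 0.65 FPKM and highest in the BMP2 library.

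**Figure D5:**
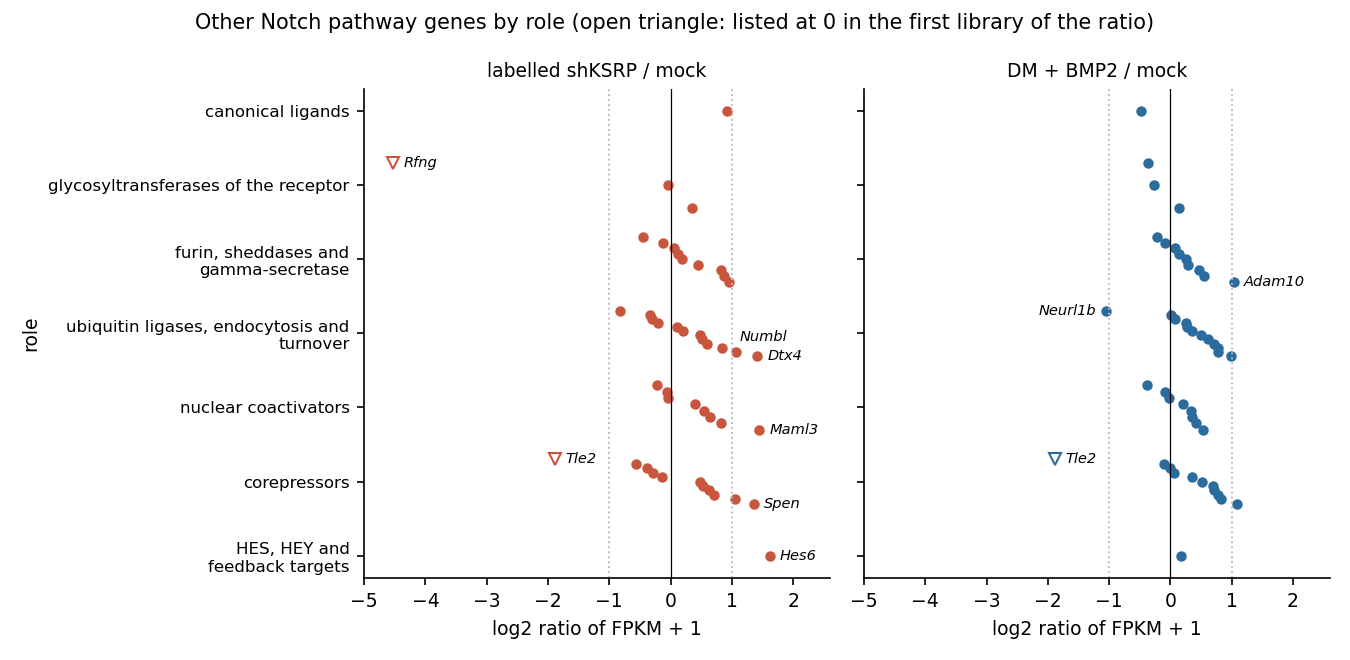
Log2 ratios of FPKM + 1 (x axes) of the 45 other pathway genes compared, by role (y axis), for the library labelled shKSRP (left) and the BMP2 library (right), each against mock; points are genes, dotted lines the 2-fold rule, and most genes past it are named. Most genes lie between the lines, with 6 called higher on the left and 2 on the right, and the open triangles Rfng and Tle2 are listed at 0.

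For each member called against mock, the genes with the nearest pair of log2 ratios against mock were looked up among about 7036 other genes at a mean of 5 FPKM or more, with distance in log2 units over the 3 libraries. Nearest to Notch3 were Myf5, a myogenic factor gene of satellite cells and myoblasts, at 7.75, 48.4 and 9.09 FPKM (distance 0.16), and Gnpda1 (0.17). Nearest to Dll1 were Birc6 (0.010) and Mroh1 (0.039), and nearest to Jag1 were Tmco3 (0.039) and Zswim4 (0.042). Nearest to Lfng were Bmp2k (0.16), the gene of a kinase named for its induction by BMP2, at 8.16, 3.10 and 24.8 FPKM, and Fgf10 (0.19). Nearest to Hey1 were Smad6 (0.18), the gene of an inhibitory SMAD that BMP signals induce, at 13.2, 18.1 and 102.4 FPKM, and Spon2 (0.25). Like Notch3, Myf5 was high in the library labelled shKSRP alone, and like Hey1, Smad6 was high in the BMP2 library alone. With 3 libraries many genes share a pattern by number alone, so these names describe the shape of the values.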

How the data were processed

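The authors deposited a Cufflinks transcript table for each library with FPKM and its 95% bounds per transcript, per the file headers and attributes. The deposited score column, set by Cufflinks relative to the most abundant transcript of a locus, was not used. The tools listed in the submitters' processing notes are TopHat 1.4.1 with Bowtie 0.12.7, CASAVA 1.8 and Cufflinks 1.3.0, on mm9, with no settings stated. Libraries came from oligo(dT)-selected RNA with 18 cycles of PCR, per the labels' protocols, without molecular identifiers.

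RefSeq accessions took symbols from a RefSeq table, then from the files and GENCODE. Assembled transcripts of a locus were added to its gene, at shared loci to the gene with most exon overlap. Half-widths were combined as root sums of squares. Genes were compared at 1 FPKM or more in at least 1 library and a RefSeq transcript of at least 300 nt. With 1 library per group there was no test. Genes named were the members, called pathway genes and the 2 nearest patterns. The calling was run on simulated data with set changes and interval noise only. This checks the computation and holds no spread between cultures. Python 3.11.15, pandas 2.3.3 and statsmodels 0.14.6 were used, with 12 alternative settings and 1 more chosen after seeing the data. The members and lists were chosen with earlier results of these data known. Results of 1 pathway gene are counted in its list but are not reported here.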

Additional observations from a re-analysis of the deposited data

Results flagged for a closer look

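An unspliced assembled transcript inside an Rbpj intron (mm9, chr5:53977699-53978739), which belongs to no member's locus and was not counted for Rbpj, was at 0.287 ± 0.143 FPKM in the BMP2 library and was not listed in the mock library or in the library labelled shKSRP.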

How the results depend on the processing

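Over the settings tried, 188 log2 ratios of single members moved by less than their interval half-width and 128 by more. Notch3 (library labelled shKSRP against either other), Lfng (all comparisons) and Hey1 (BMP2 against either other) kept their calls under every alternative run for them. Directions turned for ratios that were not called: BMP2 against mock for Notch1 (-0.19 with overlapping transcripts added), Notch2 (-0.05 with the length trend removed) and Rbpj (down to -1.29 with RefSeq transcripts only), and for Rbpj in the library labelled shKSRP against mock (0.02, most abundant RefSeq transcript) and against BMP2 (0.80, RefSeq transcripts only). The counts below are of called members and of called other pathway genes. They moved by over 1.5 times, with the cause not tested. Percentages in brackets are the shares of all genes called in that direction under the same setting. For the library labelled shKSRP against mock, a pseudocount of 0.1 FPKM gave 3 members lower (15.7%). A pseudocount of 5 gave 1 member higher and 1 pathway gene in each direction (5.28% higher, 7.93% lower). A filter at 5 FPKM left 3 pathway genes higher (11.0%) and 1 lower (13.7%), because fewer genes were tested. With RefSeq transcripts only, or the most abundant of them, 5 members were higher, and 12 pathway genes were higher and 5 lower. The shares were 18.1% higher and 14.0% lower in the first case, 17.8% and 14.0% in the second. The same FPKM sum gave 14 pathway genes higher (19.1%). Removal of the length trend gave 2 members lower (11.2%). So did adding overlapping transcripts of other loci over a fixed gene length (11.0%), the alternative chosen after seeing the data. In both cases the second is Notch1, listed at 0. With genes listed at 0 or at shared loci left out, 0 pathway genes were lower (10.6%). A 1.5-fold rule gave 3 members lower (24.2%) and 16 pathway genes higher (21.5%).

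For BMP2 against mock, a pseudocount of 0.1 gave 4 members and 4 pathway genes higher (12.5%). A pseudocount of 5 gave 0 pathway genes in each direction (4.71% higher, 5.48% lower). The filter at 5 FPKM gave 0 pathway genes lower (9.56%). RefSeq transcripts only gave 5 members higher and 1 lower, and 13 pathway genes higher and 4 lower (14.5% higher, 11.3% lower). The most abundant RefSeq transcript gave 5 members higher, and 13 pathway genes higher and 4 lower (14.6% higher, 11.4% lower). A fixed gene length gave 1 pathway gene higher, also with overlapping transcripts added (8.67% in both cases), and removal of the length trend gave 0 (8.38%). The same FPKM sum gave 4 members and 8 pathway genes higher (14.9%). Leaving out genes listed at 0 or at shared loci gave 1 pathway gene lower (7.24%). The 1.5-fold rule gave 4 members and 11 pathway genes higher (19.4%).

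For the library labelled shKSRP against BMP2, 4 settings each gave 2 members higher. These were a pseudocount of 0.1 (7.96%), RefSeq transcripts only (11.2%), the most abundant of them (10.9%) and the same FPKM sum (7.88%). A pseudocount of 5 gave 1 pathway gene in each direction (2.92% higher, 4.48% lower). Both RefSeq settings gave 5 pathway genes higher and 6 lower (10.3% and 10.2% lower). Leaving out genes listed at 0 or at shared loci gave 1 pathway gene lower (6.79%). The 1.5-fold rule gave 3 members higher and 5 lower, and 8 pathway genes higher and 5 lower (13.3% higher, 17.6% lower).

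No paired analysis was possible because each group is 1 library, and for the same reason no replicate could be left out. Depth limits the low members: Heyl rests on fewer than 16 fragments a library, and values of Notch1 and Dll1 in the mock library rest on about 248 and 137.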
